A study of Mus musculus with 3 samples.

Results

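The proteasome is the large protease that destroys proteins tagged with ubiquitin. Its 47 genes in this series were the gene names of the alpha and beta core subunits (Psma, Psmb), the ATPases (Psmc), the non-ATPase subunits (Psmd), the activators and the inhibitor (Psme, Psmf) and the Psmg assembly chaperones, each followed by a number and at most 1 letter, out of 23376 named genes. The rule used gene names and no measured value. They comprised 8 alpha genes, 7 constitutive beta genes, 3 beta genes of immune cells or thymus, 6 ATPases, 13 non-ATPase genes, 6 activator or inhibitor genes and 4 Psmg genes. Of the 47, 42 reached a mean of 1 FPKM over the libraries and are called expressed below. The names Psmb9 and Psmd1 had no row among the rows used here.

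Oocytes of 8-week-old female mice of the outbred ICR strain were sequenced in 3 libraries, 1 each from animals labelled with no PCB118 exposure, a low exposure and a high exposure. PCB118 is a dioxin-like chlorinated biphenyl. By the title of the series, mothers were exposed while pregnant and the oocytes are those of their offspring. The labels give no amounts and do not say how many animals or oocytes went into a library. With 1 library per group no difference has a replicate check, no p-value is given, and each statement describes these libraries and not the exposures.

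In the core particle, stacked rings of alpha and beta subunits enclose the cutting sites, which lie on a few of the beta subunits. The regulatory particle caps the core: its ATPase ring unfolds the substrate, its lid removes ubiquitin, and other subunits bind ubiquitin chains. Alternative caps such as PA28 and PA200 open the core without needing ubiquitin, and dedicated chaperones build both particles. In oocytes, timed destruction of cyclin B and securin by this protease lets meiosis proceed, and maternal proteins are cleared by it after fertilization.

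Values are FPKM, which divides fragment numbers by transcript length and library size, so levels can be set side by side between genes. Log2 ratios were taken after adding 1 FPKM, which understates the change of low genes, and a gene was called at 2-fold on that scale. Summed FPKM was 377415 (control), 424756 (low dose) and 393864 (high dose), and the most common smallest value put the depth near 34700000, 27900000 and 31500000 reads in that order. All 11 oocyte markers with a row were expressed, with Dppa3 at 4707 FPKM in control, 4174 FPKM at the low dose and 5342 FPKM at the high dose. They were not level between libraries: Gdf9 had 660.7 FPKM in control, 38.5 FPKM at the low dose and 192.8 FPKM at the high dose, and Mos had 9.36, 177.9 and 8.57 FPKM in that order. The granulosa and cumulus markers, 14 of 18 with a row, summed to 28.9 FPKM in control, 39.6 FPKM at the low dose and 26.7 FPKM at the high dose. Amh and Foxl2 had no row. Of the 6 expressed ones, 2 were below control at each dose, beside 39.5% (low) and 44% (high) of all expressed genes. Nr5a2, the most abundant, had 17.0 FPKM in control, 13.2 FPKM at the low dose and 10.6 FPKM at the high dose. Lhcgr was at 0.085 FPKM in control, 3.86 FPKM at the low dose and 1.61 FPKM at the high dose. Cyp11a1 was at 3.55, 7.51 and 0.44 FPKM in that order. The part of either kind of marker in the proteasome values was not tested. Fewer cells of a type and less RNA per cell cannot be told apart in such data.

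Proteasome RNA made up 0.708% of all FPKM at the low and 0.85% at the high dose, against 1.13% in control. Summed over the 47 genes this was 3006 FPKM at the low dose and 3349 FPKM at the high dose, against 4263 FPKM in control. Most genes of the core and regulatory particles were modestly lower in both exposed libraries, while the activator gene Psme3 was 3.57-fold and 3.87-fold its control level at the low and high dose, and the chaperone gene Psmg4 0.378-fold and 0.333-fold. The expressed core, ATPase and non-ATPase genes, counted with the assembly chaperones Psmd5, Psmd9 and Psmd10, numbered 32. At the low dose 14.5% of all expressed genes were called higher and 5.84% lower, and at the high dose 9.51% and 5.18%. None of the 32 passed 2-fold at either dose on FPKM as deposited. With each library scaled to a common median, Psmb1 (-1.08), Psmb3 (-1.04) and Psmc4 (-1.18) passed it at the low dose, and Psmb1 and Psmc4 also did with trimmed mean scaling.

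Of the 42 expressed genes, 34 were lower at the low dose than in control, a direction shown by 39.5% of all 12151 expressed genes, and 8 were higher, as were 60.3% of all. At the high dose 33 were lower, against 44% of all expressed genes, and 9 higher, against 55.8%. The median log2 ratio of the proteasome genes was -0.35 at the low and -0.21 at the high dose, beside medians over all expressed genes of 0.17 and 0.08. Scaling moved these values: a trimmed mean scaling brought the median of all genes to -0.01 at the low dose and deepened the proteasome median to -0.57. Both comparisons use the same control library, so they are not independent of each other.

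The 2-fold rule called few proteasome genes. At the low dose 2 of 42 were called higher, where 14.5% of all expressed genes were, and 1 was called lower, where 5.84% were. At the high dose 1 was called higher, against 9.51% of all expressed genes, and 1 lower, against 5.18%. The called genes were Psme3 (higher at both doses), Psmg2 (higher at the low dose) and Psmg4 (lower at both doses). At 1.5-fold, 11 proteasome genes were lower at the low dose, against 12.8% of all expressed genes, and 3 were higher, against 26.8%. At the high dose 5 were lower by that rule, against 12.2%, and 2 higher, against 19.4%. The interquartile range of the proteasome log2 ratios was 0.47 at the low and 0.38 at the high dose, beside 0.90 and 0.72 for all expressed genes. Of the 42, 26 were among the 2430 most abundant expressed genes, and calls and spread were not compared with genes of matched level.

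**Figure D1:**
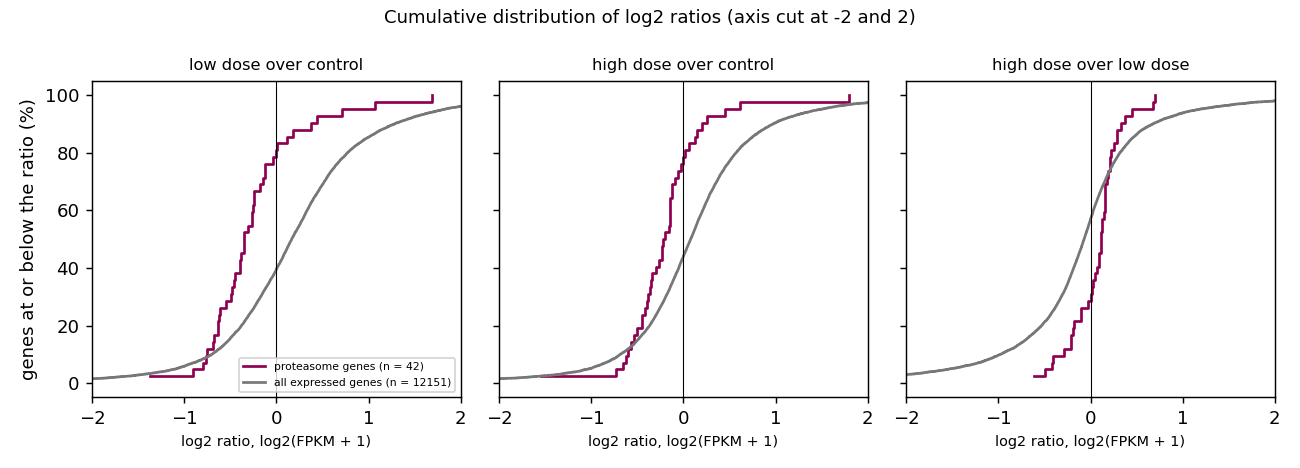
Cumulative share of genes (y axis, %) at or below each log2 ratio on the log2(FPKM + 1) scale (x axis) for the 42 expressed proteasome genes and for all 12151 expressed genes, in 3 panels for low dose over control, high dose over control and high dose over low dose. The proteasome curve lies left of the curve of all genes over most of its course in the first and second panels, with medians of -0.35 and -0.21, and in the third it is steeper and lies right of it up to its middle, with a median of 0.11.

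The high dose library mostly stood between the other libraries. In 24 of the 42 genes the FPKM was highest in control, intermediate at the high dose and lowest at the low dose, an order held by 15.9% of all expressed genes. The order control, low dose, high dose from highest to lowest was found in 6 (12.1% of all expressed genes), low dose, high dose, control in 3 (28.7%) and high dose, low dose, control in 2 (15.6%). Control was the highest of the libraries for 30 of the 42, against 28.3% of all expressed genes. Set against the low dose, 30 of the 42 were higher at the high dose, a direction found in 43% of all expressed genes, 12 were lower, against 56.8%, and the median log2 ratio was 0.11, beside -0.07 over all expressed genes. None of the 42 passed 2-fold in that comparison in either direction, where 6.1% of all expressed genes were called higher and 9.73% lower. At 1.5-fold 2 were higher, against 11.5%, and 1 lower, against 18.3%.

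Transcript length moved with these ratios. Among the 2344 expressed genes whose longest transcript had 1251 bases or fewer, the median log2 ratio at the low dose was -0.02, and among the 2343 with 4876 bases or more it was 0.38. The corresponding medians at the high dose were -0.03 and 0.22. The longest annotated transcript of the expressed proteasome genes had a median of 1705 bases, against 2857 bases for all expressed genes with a length. Between 1252 and 2314 bases lay 17 proteasome genes, with medians of -0.39 at either dose, beside -0.03 (low) and -0.08 (high) for all 2344 genes of that length. With ratios adjusted by the running median over length, the proteasome medians were -0.32 and -0.19, and 34 and 33 of the 42 were below 0.

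**Figure D2:**
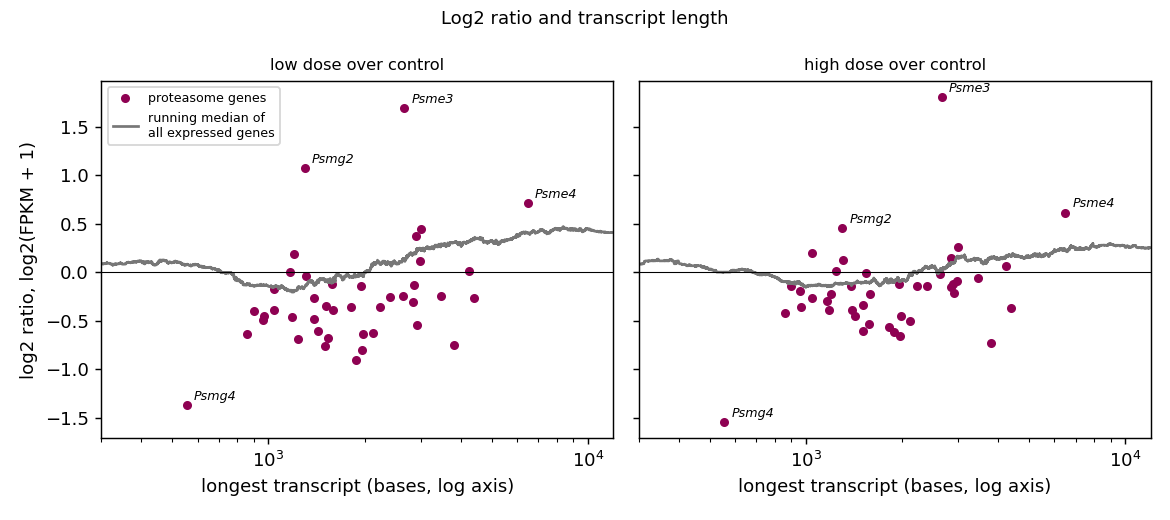
Log2 ratio to control (y axis, log2(FPKM + 1) scale) against the longest annotated transcript (x axis, bases, log axis), with the low dose on the left and the high dose on the right. Points are the 42 expressed proteasome genes and the line is the running median of all expressed genes with a length. Most points lie below the line at either dose, and Psme3 (1.69 and 1.80) and Psmg4 (-1.37 and -1.54) lie farthest from it.

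Level moved with them as well. In the fifth of all expressed genes with the lowest mean level the median was 0.22 (low dose) and 0.10 (high dose). Among the 2430 most abundant expressed genes, with means of 20.7 FPKM and more, were 26 proteasome genes. Below control were 25 of these (low dose) and 23 (high dose), where 48.8% and 50.2% of all 2430 were. Their medians were -0.42 and -0.32, beside 0.02 and -0.003 for the 2430 genes.

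The beta ring was lower throughout. All 7 constitutive beta genes were below control at both doses, with medians of -0.46 and -0.39. Psmb1, a non-catalytic beta subunit and the most abundant proteasome gene of the control library, had 450.9 FPKM at the low dose and 498.5 FPKM at the high dose, against 786.9 FPKM in control. Its log2 ratios were -0.80 and -0.66. Psmb3, another structural beta subunit, had 58.8 FPKM at the low dose and 65.9 FPKM at the high dose, against 100.5 FPKM in control. Psmb2 had 202.5 and 235.3 FPKM at the low and high dose, against 314.6 FPKM in control, and Psmb4 had 78.5 and 82.6 FPKM, against 108.3 FPKM in control. In these 4 genes the low dose library was lowest and control highest.

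The subunits that carry the cutting sites showed smaller differences. Psmb6, with the caspase-like site, had 211.3 FPKM at the low dose and 225.8 FPKM at the high dose, against 289.2 FPKM in control. Psmb7, with the trypsin-like site, had 92.1 FPKM at the low dose and 90.2 FPKM at the high dose, against 100.8 FPKM in control. Psmb5, with the chymotrypsin-like site, was the lowest of the 14 core genes in every library, at 6.02 FPKM at the low dose and 7.38 FPKM at the high dose, against 8.25 FPKM in control. The level of Psmb5 is uncertain: 57.1% of the 50-base stretches of its longest transcript also occur in transcripts of other genes. One of these, Gm3375, was listed with 0 FPKM at either dose and 24.8 FPKM in control. How reads were divided between the copies was not tested.

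The alpha ring, which gates entry to the core, was less uniform. At the low dose 6 of 7 expressed alpha genes were below control (median -0.35) and at the high dose 5 of 7 (median -0.23). Psma2 had 462.7 FPKM at the low dose and 581.5 FPKM at the high dose, against 676.3 FPKM in control. Psma7 had 279.4 FPKM at the low dose and 281.5 FPKM at the high dose, against 356.2 FPKM in control. Psma6 was also lower in both exposed libraries, at 127.3 FPKM (low dose) and 138.9 FPKM (high dose), against 167.2 FPKM in control. Psma5 was at 95.8 FPKM at the low dose but 156.1 FPKM at the high dose, against 154.7 FPKM in control, so the high dose and control libraries stood together. Psma5 shares 55.4% of its 50-base stretches with other genes. Psma1 was 1 of the few genes above control at the low dose, at 65.2 FPKM against 57.3 FPKM, and was below it at the high dose, at 48.8 FPKM; trimmed mean scaling turned its low dose log2 ratio of 0.18 to -0.04. Psma4 was level with control at the low dose, at 42.2 FPKM in both libraries, and at 34.3 FPKM at the high dose. Psma3 had 35.4 FPKM at the low dose and 48.9 FPKM at the high dose, against 44.1 FPKM in control. Psma4 shares 31.5% of its 50-base stretches with other genes and Psma3 shares 22.0%. The gene that shares most with Psma3, Gm13835, had 6.33 FPKM at the low dose and was listed at 0 at the high dose and in control; how reads were divided between these was not tested.

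The specialized core subunits were near the floor. Psma8, the alpha subunit of testis, was listed at 0 in the high dose and control libraries and had 0.042 FPKM at the low dose. Psmb8, an interferon-induced catalytic subunit of the immunoproteasome, had 0.18 FPKM at the low dose and 0.023 FPKM at the high dose, against 0.021 FPKM in control, the last being the worth of about 1.4 reads over its longest transcript. Psmb10, another immunoproteasome subunit, had 1.0065 FPKM at the low dose and 1.24 FPKM at the high dose, against 1.06 FPKM in control. Psmb11, the subunit of thymic epithelium, had 1.07 FPKM at the low dose and 1.14 FPKM at the high dose, against 1.06 FPKM in control. These 4 genes held far less RNA than any constitutive beta gene in each library. Of 13 genes of interferon-induced antigen presentation, 4 were expressed. None of the 4 was called at the low dose, where 14.5% of all expressed genes were called higher and 5.84% lower. At the high dose 1 of the 4, the transcription factor Irf1, was called lower (2.21 FPKM, against 10.5 FPKM in control), beside 5.18% of all expressed genes lower and 9.51% higher. Tap1, the peptide transporter, was listed at 0 at either dose and at 0.011 FPKM in control, while B2m had 44.8 FPKM at the low dose and 59.2 FPKM at the high dose, against 41.0 FPKM in control.

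**Figure D3:**
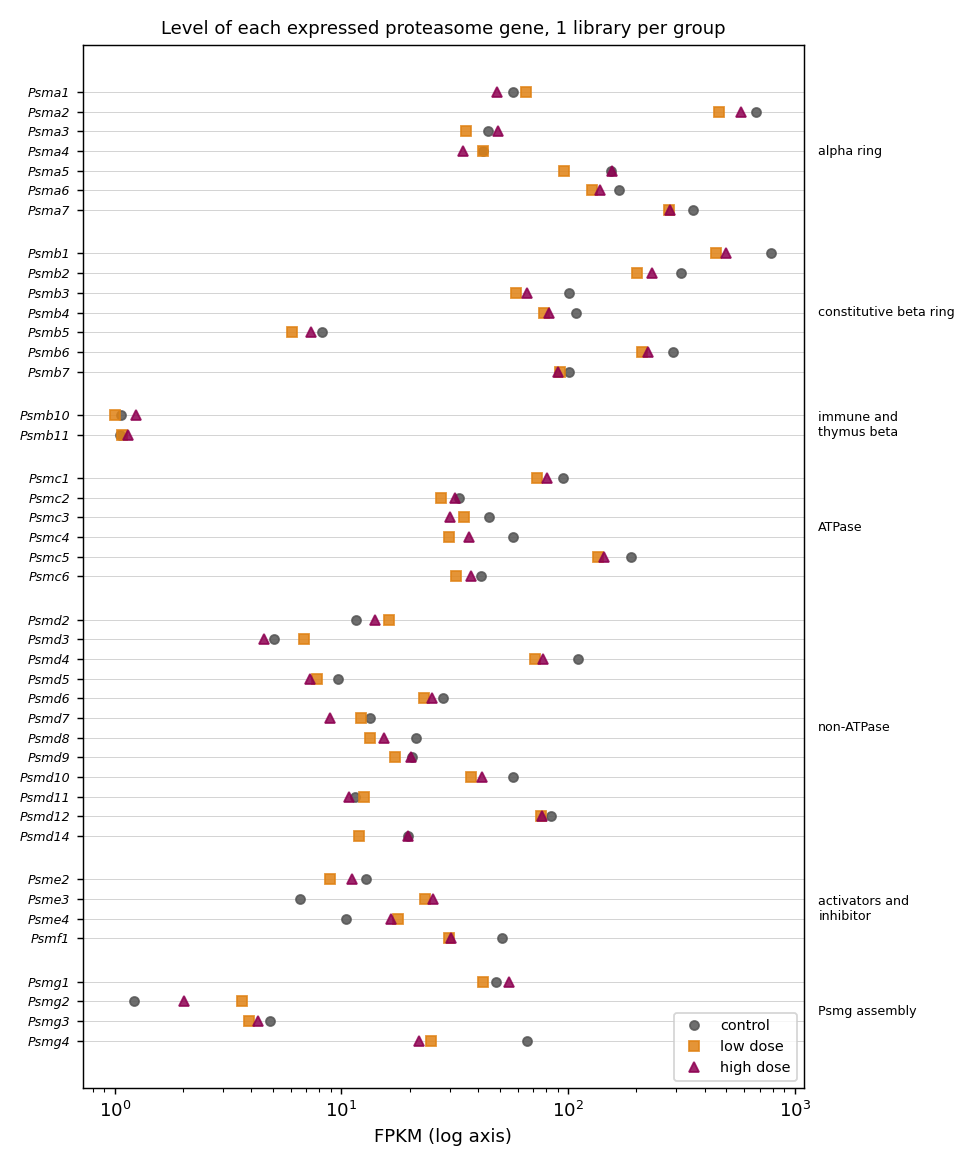
FPKM (x axis, log axis) of each of the 42 expressed proteasome genes in the control (circle), low dose (square) and high dose (triangle) libraries, grouped by role, with 1 library per group and hence no error bars. Within the core the levels run from Psmb5 at 6.02 to 8.25 FPKM up to Psmb1 and Psma2, and the circle is the rightmost symbol in 30 of the 42 genes.

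The 6 ATPases of the base, which unfold substrates, were all below control at both doses, with medians of -0.37 and -0.31. Psmc4 had the largest difference of the core and regulatory particles at the low dose, with a log2 ratio of -0.91. It had 29.9 FPKM at the low dose and 36.7 FPKM at the high dose, against 57.0 FPKM in control. Psmc5, the most abundant ATPase, had 135.1 FPKM at the low dose and 143.5 FPKM at the high dose, against 188.6 FPKM in control. Psmc3 was lowest at the high dose, at 30.004 FPKM, with 34.9 FPKM at the low dose, against 44.9 FPKM in control. Psmc1 and Psmc6 had log2 ratios of -0.39 and -0.35 at the low dose and -0.23 and -0.15 at the high dose. Psmc2 lay nearest to control, at 27.6 FPKM at the low dose and 31.7 FPKM at the high dose, against 33.0 FPKM in control. Psmc1 shares 17.6% of its 50-base stretches with other genes.

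Among the 12 expressed non-ATPase genes, 9 (low dose) and 11 (high dose) were below control, with medians of -0.25 and -0.14. Psmd4, the ubiquitin receptor Rpn10, had 71.6 FPKM at the low dose and 77.9 FPKM at the high dose, against 110.7 FPKM in control. Psmd2, the scaffold of the base known as Rpn1, went the other way in both exposed libraries, with 16.2 FPKM at the low dose and 14.1 FPKM at the high dose, against 11.6 FPKM in control, and shares 26.1% of its 50-base stretches with other genes. The lid genes spread widely. Psmd14, the deubiquitinase of the lid, had 11.9 FPKM at the low dose but 19.6 FPKM at the high dose, against 19.7 FPKM in control. Psmd8 had 13.4 FPKM at the low dose and 15.4 FPKM at the high dose, against 21.4 FPKM in control. Psmd7, the partner of Psmd14, showed the reverse order of the doses, at 12.2 FPKM at the low dose and 8.91 FPKM at the high dose, against 13.4 FPKM in control. Psmd3 and Psmd11 were above control at the low dose (log2 ratios 0.37 and 0.12) and below it at the high dose (-0.12 and -0.09); under trimmed mean scaling the low dose value of Psmd11 was -0.09. Psmd6, with 23.1 and 25.2 FPKM at the low and high dose, against 28.0 FPKM in control, was slightly below control at both doses. So was Psmd12, with 76.0 and 76.9 FPKM, against 83.9 FPKM in control. The largest row of Psmd12 alone had 69.3 and 75.4 FPKM, against 83.5 FPKM in control. Psmd13, a lid subunit, was not among the expressed genes: it had 0.76 FPKM at the low dose and 0.69 FPKM at the high dose, against 0.45 FPKM in control. The pseudogene Gm15542, which overlaps Psmd13 on the same strand, had 44.4 FPKM at the low dose and 57.4 FPKM at the high dose, against 66.3 FPKM in control, and whether its row holds reads of Psmd13 was not tested.

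The chaperones that assemble the base are also named Psmd. Psmd10, or gankyrin, had 37.3 FPKM at the low dose and 41.8 FPKM at the high dose, against 57.4 FPKM in control. Psmd5 had 7.83 FPKM at the low dose and 7.25 FPKM at the high dose, against 9.64 FPKM in control. Its largest row alone had 6.74 FPKM at the low dose, below the high dose, and a second row was above 0 only at the low dose. Psmd9 had 17.2 FPKM at the low dose and 20.2 FPKM at the high dose, against 20.6 FPKM in control, spread over 4 rows. Its largest row alone had 9.78 FPKM at the low dose, against 18.2 FPKM in control, and it overlaps Gm26745 on the opposite strand. The longest annotated transcript of Psmd9 shared no 50-base stretch with another gene. The strand setting is not given, and whether reads of Gm26745 entered the Psmd9 rows was not tested.

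**Figure D4:**
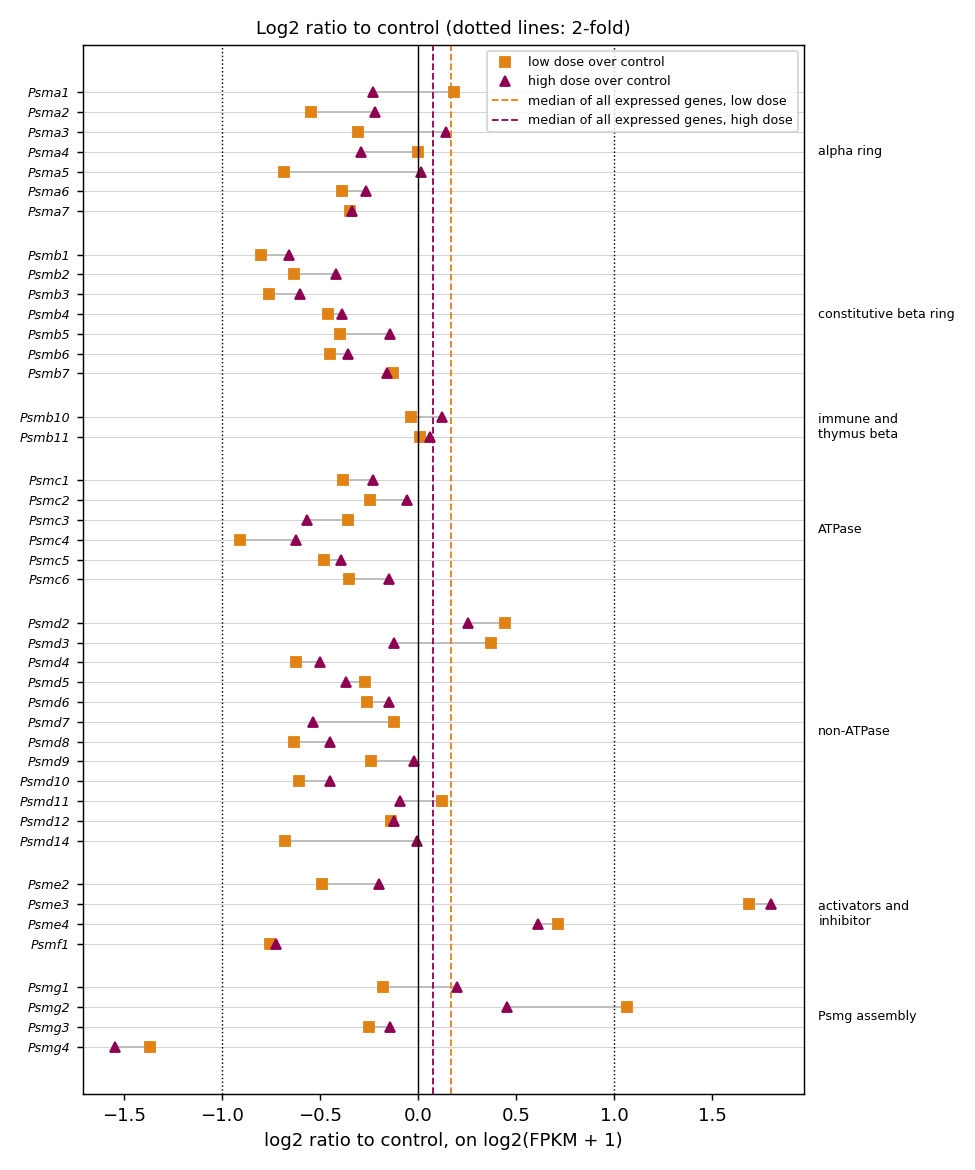
Log2 ratio to control (x axis, log2(FPKM + 1) scale) of each expressed proteasome gene at the low dose (squares) and the high dose (triangles), grouped by role. The dashed lines are the medians of all expressed genes (0.17 and 0.08) and the dotted lines mark 2-fold; only Psme3, Psmg4 and, at the low dose, Psmg2 lie beyond them.

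The activators and the inhibitor of the core parted ways. Psme3 (chr11:101316213-101323537, plus strand, GRCm38) encodes PA28 gamma, the nuclear activator that opens the core for proteins without ubiquitin. It had 23.3 FPKM at the low dose and 25.3 FPKM at the high dose, against 6.53 FPKM in control. Both exposed libraries thus stood well above control, by 3.57-fold and 3.87-fold (log2 ratios 1.69 and 1.80), and 94.2% and 96.8% of all expressed genes had lower ratios. The value came from 1 row, the longest transcript shared no 50-base stretch with another gene, and no other gene overlapped it in the annotation. Its log2 ratio stayed between 1.30 and 1.82 at the low dose and between 1.39 and 1.93 at the high dose over the alternatives tried.

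Psme4 encodes PA200, a nuclear activator linked in mouse testis to the breakdown of acetylated histones. It had 17.8 FPKM at the low dose and 16.6 FPKM at the high dose, against 10.5 FPKM in control, with log2 ratios of 0.71 and 0.61 that did not reach 2-fold. At 6491 bases it was the longest proteasome transcript, in the length class of 4876 bases or more with its medians of 0.38 (low) and 0.22 (high). Psme1 and Psme2 form the interferon-induced PA28 alpha-beta ring. Psme2 had 8.88 FPKM at the low dose and 11.1 FPKM at the high dose, against 12.9 FPKM in control, while Psme1 had only 0.60 FPKM at the low dose and 0.31 FPKM at the high dose, against 0.065 FPKM in control. Psme2 shares 59.3% of its 50-base stretches with other genes, chiefly Psme2b, which had 0.65 FPKM at the low dose and 0.47 FPKM at the high dose and was listed at 0 in control. Psmf1 encodes PI31, first known as an inhibitor of the core and also tied to proteasome transport in neurons. It had 29.955 FPKM at the low dose and 30.6 FPKM at the high dose, against 51.2 FPKM in control. The log2 ratios of -0.75 and -0.73 did not reach 2-fold. At the low dose Psmf1 passed it with length adjustment (-1.06) and with common median scaling.

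Relative to the summed core particle, both nuclear activators were higher. Psme3 amounted to 1.06% of the summed core FPKM at the low and 1.01% at the high dose, against 0.204% in control. Psme4 amounted to 0.808% and 0.664%, against 0.327% in control. Psmf1 was below its control share, with 1.36% at the low and 1.22% at the high dose, against 1.6% in control. The summed ATPases kept close to the core, at 15.0% and 14.4% of it at the low and high dose, against 14.3% in control. The summed non-ATPase genes, which include the base chaperones Psmd5, Psmd9 and Psmd10, were 13.9% and 12.9% of the core, against 12.3% in control.

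**Figure D5:**
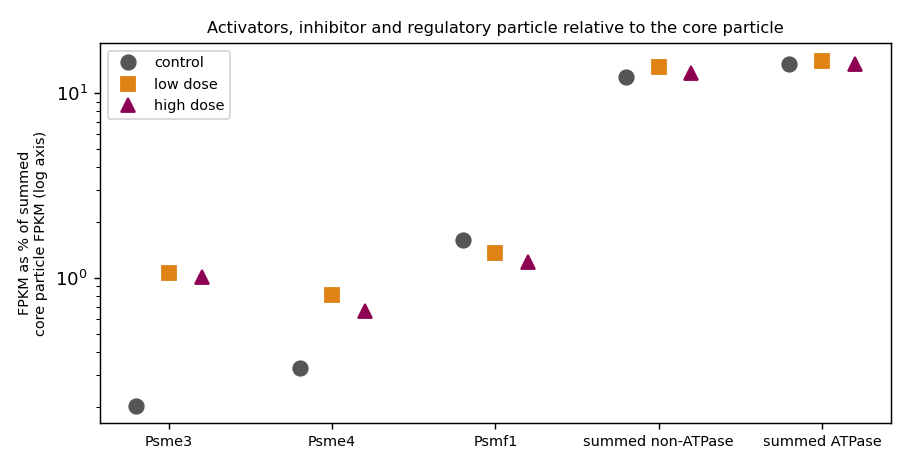
FPKM of Psme3, Psme4 and Psmf1 and summed FPKM of the expressed non-ATPase and ATPase genes, each as a percent of the summed FPKM of the 14 constitutive core genes (y axis, log axis), in the 3 libraries. Psme3 is at 1.06 and 1.01% in the exposed libraries against 0.204% in control, while the ATPases stay between 14.3 and 15.0%.

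The Psmg chaperones, which work in pairs to build the alpha ring, did not move together. Psmg4 (chr13:34162964-34178173, plus strand, GRCm38), the partner of Psmg3, had 24.9 FPKM at the low dose and 21.9 FPKM at the high dose, against 65.9 FPKM in control. Its log2 ratios of -1.37 and -1.54 were the lowest of all proteasome genes at both doses, and 3.31% and 2.43% of all expressed genes had lower ones. It was listed in 1 row and shared no 50-base stretch with another gene; at 555 bases it had the shortest transcript of the family, in the length class with medians of -0.02 and -0.03. Psmg3 had 3.89 FPKM at the low dose and 4.28 FPKM at the high dose, against 4.83 FPKM in control. Of the other pair, Psmg1 had 42.3 FPKM at the low dose and 55.1 FPKM at the high dose, against 48.0 FPKM in control. Psmg2 had 3.64 FPKM at the low dose and 2.03 FPKM at the high dose, against 1.21 FPKM in control. Its low dose log2 ratio of 1.07 passed 2-fold, but not with trimmed mean scaling (0.89) or with 5 FPKM added (0.48).

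The promoters of Psme3 and Psmg4, which were called at both doses, are shown with those of Psme4 and Psmf1, the other nuclear activator and the inhibitor. They were searched for an ETS core, CCGGAA, a motif bound by ETS factors and common in promoters of housekeeping genes. RefSeq gave a window from 250 bases before to 50 bases after the start on GRCm38.p6 for 39 of the 47 genes, not for Psma8, Psmb1, Psmb2, Psmb7, Psmc3, Psmd3, Psmd7 and Psmg2. Each window is printed from 5′ to 3′ on the strand of its gene, and capitals mark CCGGAA on either strand. Psme3 (chr11:101315963-101316262, plus strand) had 3 matches, Psme4 (chr11:30771525-30771824, plus strand) had 2, Psmf1 (chr2:151741261-151741560, minus strand) had 1, and Psmg4 (chr13:34162714-34163013, plus strand) had none. Genes lower than control at both doses also had several matches: Psma6 had 4 in 1 of its windows, and Psmd10 had 2. In Psmd4 the 2 matches overlap in 1 run, TTCCGGAA, which reads the same on either strand.
Psme3: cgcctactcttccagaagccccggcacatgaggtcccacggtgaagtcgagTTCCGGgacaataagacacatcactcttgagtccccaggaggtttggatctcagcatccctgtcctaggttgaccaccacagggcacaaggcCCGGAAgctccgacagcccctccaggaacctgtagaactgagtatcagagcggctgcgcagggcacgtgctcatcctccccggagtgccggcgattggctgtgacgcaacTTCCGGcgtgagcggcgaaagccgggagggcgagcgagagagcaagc
Psme4: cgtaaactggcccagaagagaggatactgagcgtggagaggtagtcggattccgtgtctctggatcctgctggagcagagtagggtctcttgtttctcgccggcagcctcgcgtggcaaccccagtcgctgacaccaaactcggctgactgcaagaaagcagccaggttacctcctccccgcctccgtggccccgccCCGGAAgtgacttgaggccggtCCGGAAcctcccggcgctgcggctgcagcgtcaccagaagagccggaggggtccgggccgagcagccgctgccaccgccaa
Psmf1: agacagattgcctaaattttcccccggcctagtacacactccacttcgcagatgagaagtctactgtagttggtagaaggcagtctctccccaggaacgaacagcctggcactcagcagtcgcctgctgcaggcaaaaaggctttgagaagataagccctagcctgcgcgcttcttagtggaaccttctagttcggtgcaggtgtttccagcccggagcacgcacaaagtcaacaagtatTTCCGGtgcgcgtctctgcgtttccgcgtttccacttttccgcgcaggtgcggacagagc
Psmg4: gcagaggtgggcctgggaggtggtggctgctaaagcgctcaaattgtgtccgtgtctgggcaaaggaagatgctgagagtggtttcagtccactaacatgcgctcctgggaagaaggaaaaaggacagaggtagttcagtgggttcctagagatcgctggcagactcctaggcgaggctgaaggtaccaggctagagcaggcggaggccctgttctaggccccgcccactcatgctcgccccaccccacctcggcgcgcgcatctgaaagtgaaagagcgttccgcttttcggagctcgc

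CCGGAA was found on either strand in the windows of 19 of 35 expressed proteasome genes (54.3%), beside 30.2% of 8110 expressed genes with a window and 16.7% of all 27025 genes. TGACNNNGC, the core of the antioxidant response element through which the factors Nfe2l1 and Nfe2l2 act on proteasome genes, was in 6 of the 35 (17.1%), beside 16.4% of expressed genes. The 6 were Psmb5, Psmb6, Psmc6, Psmd9, Psmd12 and Psme4, which includes genes lower and 1 gene higher than control at both doses. The CCAAT box was in 13 of the 35 (37.1%), beside 43.3%, and GGGCGG, the GC box, in 20 (57.1%), beside 63.3%. Both strands were searched in each case. Each motif was counted on its own, whether or not it overlapped another. A match is a run of letters and not a measured binding site.

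Other genes of the proteasome pathway were mixed. Of 35 listed genes, 32 had a row and 30 were expressed. The 30 include Psmc3ip, which is named after Psmc3 and is not a proteasome component (log2 ratios -0.105 and 0.358). At the low dose 5 of the 30 were called higher and 2 lower, beside 14.5% and 5.84% of all expressed genes. At the high dose 3 of the 30 were called higher and none lower, beside 9.51% and 5.18%. These counts lie near the shares of all genes. The median log2 ratio was 0.30 at the low and 0.25 at the high dose, beside 0.17 and 0.08 for all expressed genes. These values were not adjusted for transcript length, and its part in them was not tested. The 32 genes with a row summed to 1956 FPKM at the low and 2018 FPKM at the high dose, against 2549 FPKM in control, and Ubb alone had 727 FPKM at the low dose and 952.3 FPKM at the high dose, against 1708 FPKM in control. Particle components outside the Psm names were mixed. Adrm1, the ubiquitin receptor Rpn13, had 12.0 FPKM at the low dose and 17.1 FPKM at the high dose, against 21.7 FPKM in control. Sem1, a small lid subunit, had 159.1 FPKM at the low dose and 140.5 FPKM at the high dose, against 116.7 FPKM in control. Pomp, which matures the core, had 46.7 FPKM at the low dose and 55.2 FPKM at the high dose, against 60.8 FPKM in control. The deubiquitinases on the particle were Uchl5, with log2 ratios of 0.34 and 0.40, and Usp14, with -0.16 and -0.04.

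Several accessory factors were higher in both exposed libraries. AI314180, the older symbol of the proteasome adaptor Ecpas (Ecm29), had 148.8 FPKM at the low dose and 148.2 FPKM at the high dose, against 49.9 FPKM in control, which gave log2 ratios of 1.56 and 1.55. Zfand2a, an arsenite-inducible proteasome-binding protein, had 13.3 FPKM at the low dose and 10.5 FPKM at the high dose, against 3.44 FPKM in control. Ube3c, a ubiquitin ligase that acts at the proteasome, had 10.03 FPKM at the low dose and 10.05 FPKM at the high dose, against 4.255 FPKM in control. These 3 genes were called higher at both doses. Ddi2, the protease that activates Nfe2l1, had 293.1 FPKM at the low dose and 216.2 FPKM at the high dose, against 122.3 FPKM in control, and was called only at the low dose. Ddi2 (9553 bases) and Ube3c (5048 bases) fall in the length class with medians of 0.38 (low) and 0.22 (high) over all genes. Zfand2a (3169 bases) falls in that with 0.18 and 0.10, and AI314180 had no length under that name.

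The transcription factors Nfe2l1 and Nfe2l2 and the remaining called genes of the list showed no common pattern. Nfe2l1 had 6.02 FPKM at the low dose and 3.66 FPKM at the high dose, against 4.84 FPKM in control. Nfe2l2 had 7.75 FPKM at the low dose and 3.41 FPKM at the high dose, against 3.39 FPKM in control. Akirin2, which carries proteasomes into the nucleus, had 158.3 FPKM at the low dose (log2 ratio 1.22, called higher) and 48.4 FPKM at the high dose, against 67.2 FPKM in control. Nploc4, a cofactor of the unfoldase Vcp, had 0.082 FPKM at the low dose (log2 ratio -2.96, called lower) and 8.39 FPKM at the high dose, against 7.44 FPKM in control. The polyubiquitin gene Ubb was the other one called lower at the low dose, with a log2 ratio of -1.23 there and -0.84 at the high dose.

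Between libraries the ranking of proteasome genes by level was largely kept. Across the 42 genes Spearman's rho of FPKM was 0.96 for low dose and control, 0.96 for high dose and control and 0.99 for high and low dose, beside 0.81, 0.83 and 0.83 across all expressed genes. Genes of matched level were not compared. These values describe genes within single libraries, which share a library and its depth and are not replicates. The 3 most abundant proteasome genes held 39.7% of the family's FPKM at the low and 40.7% at the high dose, against 42.7% in control.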

How the data were processed

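Oocyte RNA of 3 mouse libraries, 1 per exposure label, was analysed from processed tables. Each library had 1 table of gene identifiers, names and FPKM, the unit the authors used per the file headers. HISAT2, StringTie and mm10 are named in the submitters' processing notes; for these, version, annotation, strand setting and filters are not given in the sources used. There were 41258 rows in the control table, and 41310 in that of each exposed library.

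Rows were joined by identifier. Those absent from a table were taken as 0, which touched 2 of 56 proteasome rows, and 61 identifiers named differently between tables were left out. FPKM was summed per gene name, and 7 expressed proteasome genes had several rows. A mean of 1 FPKM or more over the libraries made a gene expressed. Ratios used log2(FPKM + 1), FPKM as deposited, and calls needed 2-fold. No count test was run, since FPKM is not a count, and 1 library per group allows none. Depth was inferred from FPKM times length in genes with 1 transcript, assuming that the most crowded low value is 1 read. It bounds counting error only.

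Lengths, overlaps and 50-base stretches came from GENCODE M21 on GRCm38 (mm10), and promoter windows from RefSeq on GRCm38.p6. Every proteasome gene could be named; of other lists, those past 2-fold and a few fixed ones. Members, lists and rules were chosen with earlier results of these data known. Python 3.11.15, pandas 2.3.3 and scipy 1.17.1 were used. Alternatives were other pseudocounts (0.1 and 5 FPKM), filters, scalings, ways to join rows, a 1.5-fold rule and a length adjustment.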

Additional observations from a re-analysis of the deposited data

How the results depend on the processing

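Over 10 alternatives for each median and 11 for each count of called genes, 79 of 93 summary values moved by at most 0.1 on the log2 scale or, for counts, 1.5 times. The proteasome medians stayed below 0 in both comparisons with control, between -0.63 and -0.27 at the low dose and between -0.37 and -0.15 at the high dose, and above 0 for high over low dose. Trimmed mean scaling gave medians of -0.57 (low dose), -0.31 (high dose) and 0.22 (high over low dose), and scaling to a common median gave -0.63, -0.37 and 0.215, with 6 genes past 2-fold at the low dose (Psmb1, Psmb3, Psmc4, Psme3, Psmf1 and Psmg4). The trimmed mean divided the low and high dose libraries by 1.17 and 1.08. The gap to the median of all genes at the low dose was -0.39 with 5 FPKM added, -0.29 without a filter and -0.32 after length adjustment, and at the high dose -0.155 without a filter. A 1.5-fold rule called 14, 7 and 3 genes in the low dose, high dose and high over low comparisons.

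Values near 0 changed sign. At the low dose trimmed mean scaling, common median scaling and length adjustment gave -0.006, -0.05 and 0 for the median of all genes, -0.096, -0.148 and -0.023 for the activators and inhibitor, and, for Psmd11, -0.088, -0.14 and -0.125. The first and second gave -0.04 and -0.096 for Psma1. Psma3 at the high dose was -0.018 with common median scaling, and Psme4 for high over low dose was 0.011, 0.009 and 0.043 under the same settings in that order. Beyond the scalings' own shift, the cause was not tested. No paired analysis was possible because each group has 1 library; leaving out a library was not possible either. Depth limits Psma8, Psmb8, Psme1 and Psme2b, which rest on the worth of 0 to 32.9 reads per library.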
